A study of Homo sapiens with 8 samples.

Results

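The 53 genes described here encode the proteins that license DNA replication origins, unwind and copy the DNA, supply its nucleotides and repackage it into chromatin. They were taken from a list of gene symbols chosen with earlier results of these data known. All 53 were found among the 58735 gene IDs of the count tables. The cells were MOLM-13, a human acute myeloid leukemia line, and bulk RNA was sequenced with a TruSeq RNA kit. The study followed the line as it was made resistant to busulfan, a DNA alkylating drug, and the libraries used here are its drug-free arm. They are vehicle cultures after 1, 3 and 5 treatment courses with 1% DMSO in place of busulfan (1 library each), and the untreated parental cells (1 library, replicate 2 of the labels). All 4 came from the same line in RPMI medium with fetal bovine serum. Parental replicate 1 and the 3 libraries of busulfan cultures were not used here. No culture has a second library at its own course, and the parental cells were kept to at most 20 passages while no passage number is given for the DMSO cultures, so passage and course cannot be told apart.

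Replication begins in G1, when the origin recognition complex (ORC), CDC6 and CDT1 load the MCM2 to MCM7 helicase onto DNA. In S phase the kinase CDC7 with DBF4, together with CDC45, the GINS complex and MCM10, turn the loaded helicase into an active one, and geminin (GMNN) blocks CDT1 so that no origin is licensed again. DNA polymerases alpha, delta and epsilon then copy the strands with the sliding clamp PCNA and its loader RFC, while ribonucleotide reductase, thymidylate synthase and thymidine kinase supply deoxynucleotides. Many of these genes are transcribed under E2F factors as cells pass from G1 into S phase, and their RNA is higher in cycling than in resting cells. In a bulk sample, fewer cells in S phase and less RNA per cell cannot be told apart.

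The gene counts of the libraries ran from 44795976 (DMSO course 1) to 56825811 (parental), and a member had between 279 and 33021 counts in a library. Each of the 10 myeloid markers checked averaged 5 CPM or more, and they summed to 2958, 3846, 3715 and 3153 CPM after 0, 1, 3 and 5 courses. Within that sum MPO was at 551, 932, 739 and 336 CPM and CSF1R at 49.0, 61.5, 27.5 and 21.7 CPM, so single markers varied by course. Of other cell types, the 5 T cell markers summed to 4.31, 0.58, 0.0597 and 0.11 CPM after 0, 1, 3 and 5 courses, with TRBC2 at 0 throughout. The 5 stromal markers summed to 5.07, 4.87, 0.776 and 0.395 CPM, with DCN and CDH5 at 0, and the 4 B cell markers to 1.67, 2.71, 0.319 and 0.373 CPM, with MS4A1 at 0. Erythroid and epithelial markers summed to at most 0.0439 CPM in any library. Mitochondrial genes took 14.36%, 15.11% and 9.22% of gene counts in DMSO courses 1, 3 and 5, against 13.57% in parental cells. Reads aligned to several places were 15.39%, 14.24% and 21.33% of all reads in those courses and 13.86% in parental cells. The part of these differences, markers included, in the results below was not tested. Levels are given as CPM, counts scaled to library sizes after TMM adjustment. Where 4 levels of a gene follow each other they stand for 0 (parental), 1, 3 and 5 courses.

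Most replication genes were lower in the DMSO libraries than in the parental one, and which genes were lowest differed between courses. Of 53 members, 48 were below the parental level in course 1, 50 in course 3 and 46 in course 5, where 48.2%, 48.6% and 47.1% of the 10710 genes that averaged 5 CPM or more were. The members' median log2 ratios to parental in courses 1, 3 and 5 were -0.62, -0.40 and -0.49, against medians of 0.02, 0.01 and 0.03 over those 10710 genes. The 3 ratios of a gene share the 1 parental library, so they are not independent of each other. In all 3 courses 42 members (79.2%) lay below parental, and 22% of the 10710 genes did. CDT1 alone among the members was above parental in all 3, and with library sizes from total counts it was below it in course 3 (log2 ratio -0.04), where 26.3% of genes were above in all 3 as reported. A member was counted as apart when its ratio was at least 2-fold and its exact 95% counting interval excluded a ratio of 1. By that rule 11 members (20.8%) were lower in course 1, where 4.19% of genes were. Under scaling by total counts, which shifts the course 1 ratio of every gene by -0.114, that count was 18, where 6.16% of genes were. In course 3 it was 0 members, where 2.34% of genes were (2 by total counts, where 2.87% were), and in course 5 it was 5 members, where 4.92% were. No member was 2-fold higher in any course, where 3.7%, 2.23% and 2.96% of genes were. GMNN lay just short of the line in course 5, at a fold of 0.501, and TIPIN in course 1 and GINS2 in course 5 lay just past it, both at a log2 ratio of -1.01. At 1.5-fold the members lower were 28, 13 and 19, where 14.1%, 6.57% and 12.2% of genes were.

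**Figure D1:**
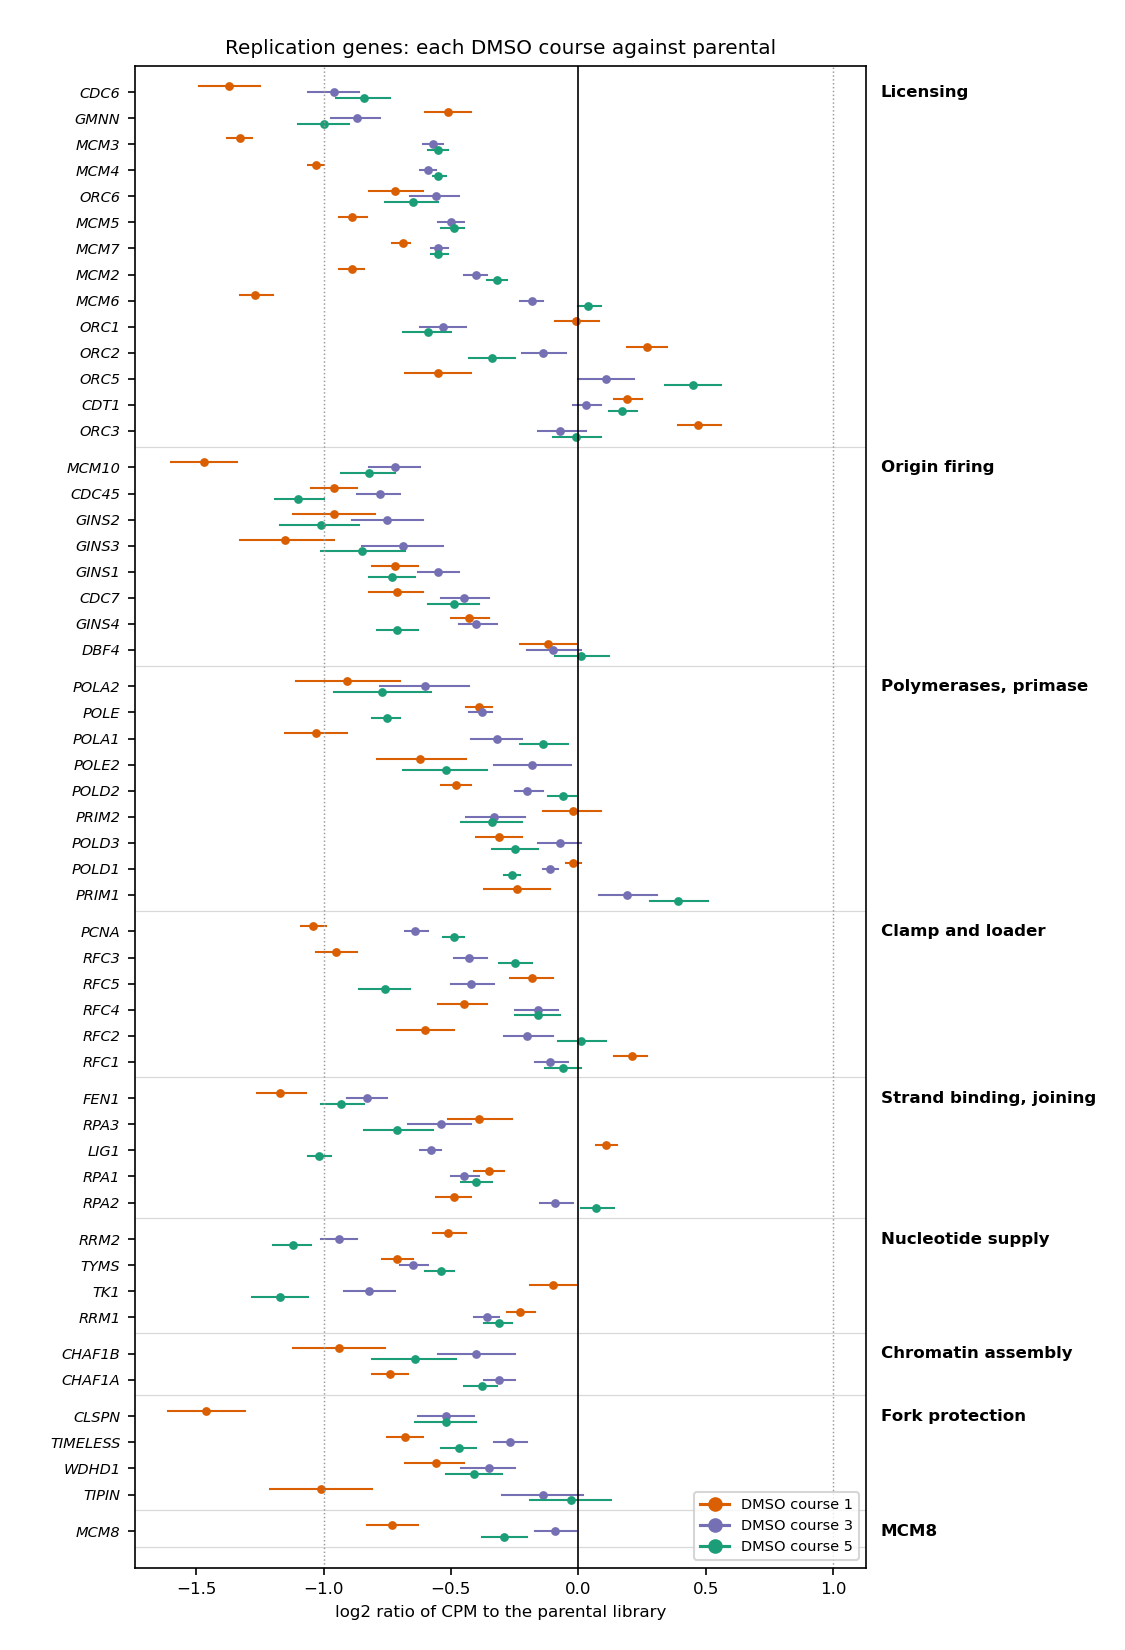
Log2 ratio of CPM in DMSO course 1 (orange), course 3 (purple) and course 5 (green) to the parental library for all 53 members, grouped by role and ordered by pooled fold change. Bars are exact binomial 95% intervals for counting error alone, dotted lines mark 2-fold, and most points lie left of 0, with course 1 farthest left for CDC6, MCM3, MCM10 and CLSPN and course 5 farthest left for LIG1, RRM2 and TK1.

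All 3 DMSO courses were next set against parental in 1 fit. Of the 53 members, edgeR's quasi-likelihood test called 0 after Benjamini-Hochberg adjustment over all 18612 genes tested, and the share called among all genes was 0%. limma-voom also called 0 members, as did DESeq2's Wald test, which called 0.575% of genes as lower and 0.559% as higher. At an unadjusted p under 0.05 edgeR listed 14 members, all lower, which is 26.4% of members where 3.07% of all genes were listed as lower and 2.55% as higher. The members' median pooled log2 fold change was -0.47, against 0.02 over all genes tested. The strongest was FEN1, the nuclease that trims the flaps of Okazaki fragments, with a log2 fold change of -0.97 (SE 0.232, adjusted p = 0.609) in edgeR's quasi-likelihood test. In this fit the spread is that between the 3 courses, and the single parental library is taken to vary to the same degree. The count changed with the libraries fitted. Leaving out course 1 left 1 residual degree of freedom, and the spread was then that between courses 3 and 5 alone. Calls among all genes rose as well. Whether the members' count changed through that spread or through their levels in course 1 was not tested. Without the course 1 library 10 members passed as lower (18.9%) and 0 as higher, where 5.19% and 3.4% of 18377 genes did. The 10 were RRM2, GMNN, FEN1, CDC6, TK1, CDC45, MCM10, GINS2, LIG1 and GINS1, with RRM2 at a log2 fold change of -1.03 (SE 0.169, adjusted p = 0.00372 in edgeR).

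The members differed in when they were lowest. Of 53 members, 33 (62.3%) had their lowest level in course 1, where 35.9% of the 10710 genes had theirs, and 15 (28.3%) had it in course 5, where 29.6% did. Only 4 were lowest in course 3, where 8.24% of genes were, and 1, CDT1, in the parental cells, where 26.3% were. With counting intervals that excluded 0, 27 members (50.9%) were higher in both later courses than in course 1, where 39.4% of genes were, and 13 (24.5%) were lower in both, where 35.8% were. The MCM helicase, PCNA and the 4 fork protection genes stood in the first set, and LIG1, TK1, RRM2, GMNN, RFC5 and ORC1 in the second. The plot of levels by course shows both shapes.

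**Figure D2:**
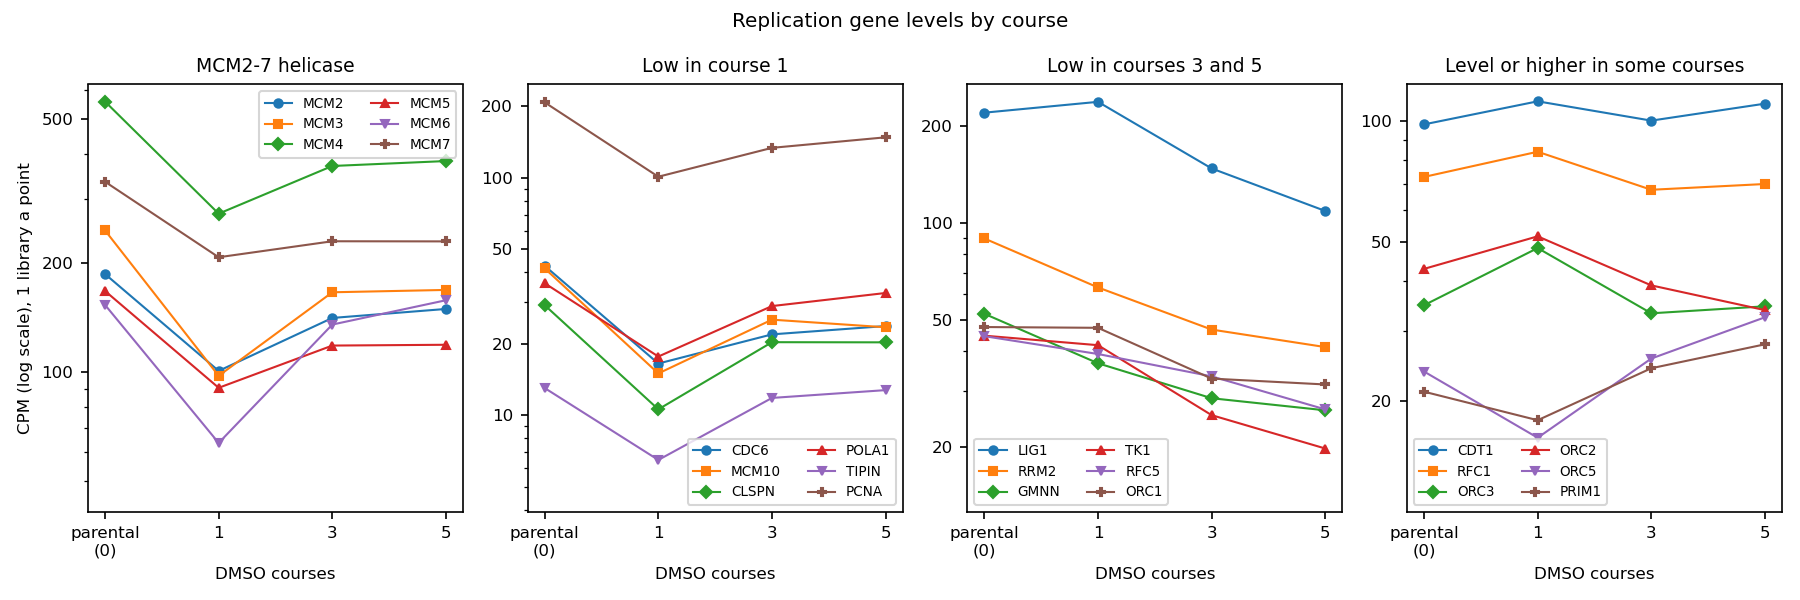
Level in CPM (log axis) of 24 members after 0 (parental), 1, 3 and 5 DMSO courses, each point 1 library, placed in panels after the values were seen. MCM2 to MCM7 and the genes of the second panel are lowest in course 1 and stand higher in courses 3 and 5, those of the third panel are lower in courses 3 and 5 than in course 1, and CDT1 stays between 98.3 and 112 CPM.

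Promoter sequence was looked at because many members are known E2F targets, and 6 promoters are shown for genes whose levels followed different courses. The windows run from 250 bases before to 50 bases after the transcription start and come from RefSeq on GRCh38.p14, with the first listed start taken for each gene. Of the 53 members 47 matched, and GINS4, MCM4, MCM5, POLD3, RPA2 and RPA3 did not. An E2F type octamer (TTTCCCGC, TTTGGCGC, TTTCGCGC or TTTGCCGC, on either strand) was present in 20 of 47 member promoters (42.6%) and in 3.33% of all 27305 promoters of that length, non-coding genes included. The letters CCAAT, the core read by NF-Y, were in 57.4% of member promoters and 35.7% of all, and TTTGAA, the core of the CHR element, in 4.26% and 15.4%. By role the octamer was in 7 of 12 licensing, 4 of 8 polymerase and 1 of 4 nucleotide supply promoters. It was in 14 of 29 members lowest in course 1 and in 4 of 13 lowest in course 5. A match is a description of the letters and not a binding site.

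In the sequences, capitals mark the E2F type octamers and CCAAT on either strand. MCM3 and MCM6 were lowest in course 1 and hold both motifs. In MCM6, 2 runs of capitals each carry 2 overlapping octamers, 1 per strand. CDC6 was likewise lowest in course 1, with all 3 courses below parental, and holds 1 octamer and 3 CCAAT. CDT1 was at or above parental and holds 1 octamer. LIG1 and RRM2 were lowest in course 5, with 1 octamer in LIG1 and 3 CCAAT in RRM2.
MCM3 (chr6:52284693-52284992, minus strand): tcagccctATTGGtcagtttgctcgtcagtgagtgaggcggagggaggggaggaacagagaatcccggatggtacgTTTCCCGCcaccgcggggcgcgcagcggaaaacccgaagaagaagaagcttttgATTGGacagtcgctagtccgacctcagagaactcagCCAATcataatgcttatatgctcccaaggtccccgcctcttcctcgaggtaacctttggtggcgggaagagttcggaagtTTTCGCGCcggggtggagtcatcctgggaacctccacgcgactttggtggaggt
MCM6 (chr2:135876394-135876693, minus strand): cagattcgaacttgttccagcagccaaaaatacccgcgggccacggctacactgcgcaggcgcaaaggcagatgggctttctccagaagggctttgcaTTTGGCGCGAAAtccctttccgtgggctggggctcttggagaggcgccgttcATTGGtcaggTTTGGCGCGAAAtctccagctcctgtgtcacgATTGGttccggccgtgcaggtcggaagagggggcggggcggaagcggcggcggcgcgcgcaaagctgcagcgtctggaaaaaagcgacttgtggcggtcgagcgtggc
CDC6 (chr17:40287629-40287928, plus strand): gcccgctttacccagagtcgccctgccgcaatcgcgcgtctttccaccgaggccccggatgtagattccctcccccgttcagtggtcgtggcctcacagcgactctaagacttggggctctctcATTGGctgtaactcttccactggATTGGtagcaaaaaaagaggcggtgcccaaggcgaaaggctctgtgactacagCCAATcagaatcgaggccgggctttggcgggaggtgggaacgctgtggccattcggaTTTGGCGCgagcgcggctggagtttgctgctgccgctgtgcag
CDT1 (chr16:88803539-88803838, plus strand): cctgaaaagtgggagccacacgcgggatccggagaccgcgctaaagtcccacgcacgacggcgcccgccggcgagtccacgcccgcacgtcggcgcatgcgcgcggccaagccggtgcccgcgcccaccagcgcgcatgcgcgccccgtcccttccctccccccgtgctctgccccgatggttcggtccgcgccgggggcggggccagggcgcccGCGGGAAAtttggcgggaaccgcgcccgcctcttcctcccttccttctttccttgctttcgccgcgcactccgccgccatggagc
LIG1 (chr19:48170295-48170594, minus strand): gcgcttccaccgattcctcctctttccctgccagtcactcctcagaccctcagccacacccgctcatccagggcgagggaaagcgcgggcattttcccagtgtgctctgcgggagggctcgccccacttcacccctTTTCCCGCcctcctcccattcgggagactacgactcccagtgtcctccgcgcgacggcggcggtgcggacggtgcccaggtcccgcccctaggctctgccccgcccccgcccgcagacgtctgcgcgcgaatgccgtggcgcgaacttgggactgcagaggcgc
RRM2 (chr2:10122489-10122788, plus strand): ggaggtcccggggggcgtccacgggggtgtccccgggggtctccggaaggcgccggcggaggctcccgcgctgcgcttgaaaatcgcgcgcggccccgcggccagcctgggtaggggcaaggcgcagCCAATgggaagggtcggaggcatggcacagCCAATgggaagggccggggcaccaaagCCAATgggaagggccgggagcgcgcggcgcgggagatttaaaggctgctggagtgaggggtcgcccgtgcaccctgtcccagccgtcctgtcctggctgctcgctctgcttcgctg

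Among licensing genes the helicase and the origin recognition complex differed. The 14 licensing genes had median log2 ratios of -0.70, -0.52 and -0.52 in courses 1, 3 and 5. The 6 helicase subunits were all lower in course 1, by -1.33 to -0.69 on the log2 scale, and lay between -0.59 and -0.18 in course 3 and between -0.55 and 0.04 in course 5. MCM3 stood at 246, 97.6, 166 and 168 CPM after 0, 1, 3 and 5 courses. MCM4 stood at 558, 274, 370.5 and 382 CPM. Every DMSO library was below the parental one for both, and course 1 was the lowest. MCM6, another subunit of the ring, stood at 153, 63.7, 135 and 158 CPM. Its level in course 1 stood apart from the other 3 libraries, and course 5 was close to parental (log2 ratio 0.04, 95% interval 0.00 to 0.09). MCM2 was at 186, 101, 141 and 149 CPM. MCM5, next to it in the ring, was at 167, 90.4, 118 and 119 CPM. MCM7 was at 335, 207, 229.6 and 229 CPM and stood nearest to parental in course 1 of the 6, with log2 ratios of -0.69, -0.55 and -0.55.

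Per kb of exon, the 6 helicase genes summed to 322, 162, 229 and 238 CPM per kb after 0, 1, 3 and 5 courses. MCM4 held 24.9% of that sum in the parental cells and 24.3%, 23.2% and 23.0% in courses 1, 3 and 5. MCM6 held 11.6%, 9.57%, 14.4% and 16.1% in the same order, and MCM7 23.7%, 29.3%, 22.9% and 21.95%. Shares of subunits within a library depend on the gene length used. With the longest transcript as length, MCM4 held 29.8% in the parental cells. All 6 subunits were lower in course 1, by unequal amounts, MCM3 and MCM6 the most. The ORC genes summed to 47.8, 47.1, 39.4 and 39.9 CPM per kb, which is nearly level between course 1 and parental.

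Among the ORC subunits, which mark origins, the order of libraries differed from gene to gene. ORC6 was at 41.4, 25.2, 28.0 and 26.3 CPM after 0, 1, 3 and 5 courses, below parental in each course. ORC1, the subunit that changes with the cell cycle, was at 47.4, 47.1, 32.8 and 31.4 CPM. Its course 1 level did not differ from parental beyond counting error (log2 ratio -0.01, 95% interval -0.09 to 0.08), and the later courses were lower. That holds for TMM scaling only, since the total-count shift of -0.114 in course 1 is larger in size than the interval's upper end. ORC2 was at 42.8, 51.7, 39.0 and 33.8 CPM, highest in course 1. ORC3 was at 34.8, 48.3, 33.2 and 34.5 CPM and likewise highest in course 1. ORC5 ran the other way, at 23.7, 16.2, 25.6 and 32.4 CPM, lowest in course 1 and highest in course 5.

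The loading factors and their inhibitor differed. CDC6, an ATPase that loads the helicase, was at 42.6, 16.5, 21.9 and 23.7 CPM after 0, 1, 3 and 5 courses, and each DMSO library was below parental. Its pooled edgeR estimate was a log2 fold change of -1.04 (SE 0.285, adjusted p = 0.721). CDT1, its partner in loading, was at 98.3, 112, 100.5 and 111 CPM, with log2 ratios of 0.19, 0.03 and 0.17, so all courses lay at or a little above parental. GMNN, the inhibitor of CDT1, was at 52.1, 36.6, 28.4 and 26.1 CPM and lower with each further course. The CPM ratio of CDT1 to GMNN was 1.89, 3.07, 3.53 and 4.25 after 0, 1, 3 and 5 courses. That ratio sets 2 genes of different length side by side, so its change between libraries can be read but its size cannot. The pooled edgeR estimate for GMNN was a log2 fold change of -0.78 (SE 0.27, adjusted p = 0.845).

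**Figure D3:**
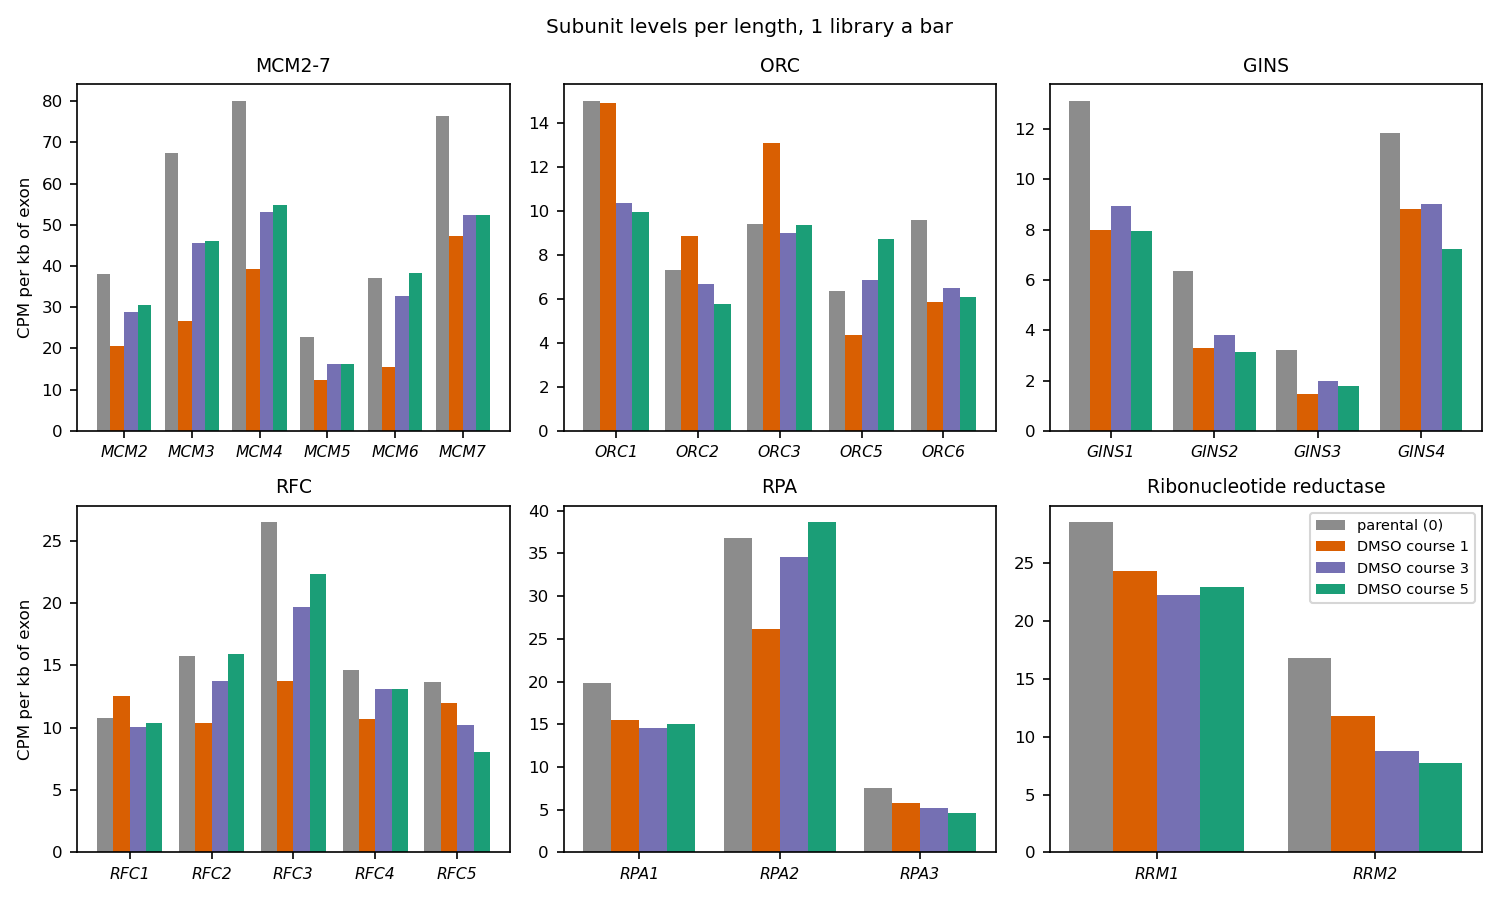
Levels in CPM per kb of exon of the listed subunits of 6 complexes (ORC without ORC4) after 0 (parental, grey), 1, 3 and 5 DMSO courses, each bar 1 library with no error bar. All MCM2 to MCM7 bars are lowest in course 1, ORC2 and ORC3 are highest there, and RRM2 is lower in each further course while RRM1 stays between 22.2 and 28.5.

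Among the roles with several genes, origin firing had the lowest pooled median, -0.77. The 8 genes had median log2 ratios of -0.84, -0.62 and -0.77 in courses 1, 3 and 5. All 8 were below parental in courses 1 and 3, with 7 below it in course 5. MCM10, which helps start the active helicase, was at 41.5, 14.99, 25.3 and 23.5 CPM after 0, 1, 3 and 5 courses. Course 1 was the lowest, with a log2 ratio of -1.47 (95% interval -1.60 to -1.34), the lowest of any member in a single library, with CLSPN next to it at -1.46. CDC45, the helicase cofactor, was at 58.9, 30.3, 34.3 and 27.6 CPM, with the 3 DMSO libraries close together and well below parental. Its pooled edgeR estimate was a log2 fold change of -0.94 (SE 0.228, adjusted p = 0.616).

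The 4 GINS genes, whose products join CDC45 and the MCM ring, were below parental in every course. GINS1 was at 53.3, 32.4, 36.4 and 32.2 CPM after 0, 1, 3 and 5 courses. GINS2 was at 20.8, 10.7, 12.4 and 10.3 CPM. Their 3 DMSO libraries lay close together. GINS3 was at 16.5, 7.45, 10.2 and 9.17 CPM, lowest in course 1. GINS4 was at 64.9, 48.2, 49.3 and 39.6 CPM, lowest in course 5. Per kb they summed to 34.6, 21.5, 23.8 and 20.1 CPM per kb, so unlike the MCM sum the GINS sum was no higher in course 5 than in course 1. The kinase gene CDC7 was at 39.5, 24.1, 28.9 and 28.0 CPM. DBF4, its activating subunit, was at 28.3, 26.0, 26.4 and 28.5 CPM, with log2 ratios of -0.12, -0.10 and 0.01, the smallest of the role.

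Polymerase and primase genes lay closer to parental than licensing and firing genes did by their medians. Their median log2 ratios were -0.39, -0.20 and -0.26, and 1 of 9 was 2-fold lower than parental in course 1, where 4.19% of genes were, with 0 in courses 3 and 5, where 2.34% and 4.92% were. By total counts POLA2 also passed in course 1. The gene that passed as reported was POLA1, the catalytic subunit of polymerase alpha, at 36.0, 17.7, 28.8 and 32.7 CPM after 0, 1, 3 and 5 courses. It was lowest in course 1 and near parental in course 5 (log2 ratio -0.14, 95% interval -0.23 to -0.04). Its partner POLA2 was at 12.2, 6.498, 8.00 and 7.13 CPM and low in all 3 courses. PRIM1, the catalytic primase subunit, was at 21.1, 17.9, 24.2 and 27.8 CPM, lower than parental in course 1 and higher in courses 3 and 5. PRIM2, the other primase subunit, was at 25.5, 25.0, 20.3 and 20.1 CPM and lower in courses 3 and 5.

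POLE, the catalytic subunit of the leading strand polymerase, was at 148, 113, 113 and 87.8 CPM after 0, 1, 3 and 5 courses, with course 5 the lowest. POLE2, its second subunit, was at 14.1, 9.17, 12.4 and 9.79 CPM and lowest in course 1. The polymerase delta genes were closer to parental. POLD1, the catalytic subunit, was at 292, 288, 270.4 and 244 CPM. POLD2 was at 112, 80.0, 97.6 and 107 CPM. POLD3 was at 43.4, 35.1, 41.2 and 36.5 CPM. Per kb these 3 delta genes summed to 97.4, 86.5, 88.7 and 85.05 CPM per kb. POLA2, PRIM1 and POLD1 have more than 5% of their exon bases under another gene on the same strand, so part of their reads may have been set aside as ambiguous.

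The sliding clamp PCNA, which tethers polymerases to DNA, was at 208, 101, 134 and 148 CPM after 0, 1, 3 and 5 courses. All 3 DMSO libraries were below parental, course 1 by 2-fold (log2 ratio -1.04, 95% interval -1.09 to -0.99). PCNA has named pseudogenes, as have DBF4, POLD2, RFC3, RFC5, RPA2, FEN1, RRM2 and TYMS, which makes these levels less certain. Of the clamp loader subunits, RFC3 was at 76.0, 39.5, 56.6 and 64.1 CPM. RFC4 was at 43.9, 32.0, 39.2 and 39.2 CPM. RFC2 was at 34.8, 23.0, 30.4 and 35.2 CPM. Each of these 3 was lowest in course 1. RFC5 was at 44.4, 39.1, 33.3 and 26.3 CPM and lowest in course 5. RFC1, the large subunit, was at 72.7, 84.0, 67.5 and 69.8 CPM, above parental in course 1. RFC3 held 32.5% of the summed RFC level per kb in parental cells and 23.1%, 29.5% and 32.0% in courses 1, 3 and 5.

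FEN1 was at 61.6, 27.4, 34.6 and 32.4 CPM after 0, 1, 3 and 5 courses, below parental in each DMSO library. LIG1, the ligase that seals Okazaki fragments, was at 220.3, 238, 148 and 109 CPM. Course 1 was the highest of the 4 libraries and course 5 the lowest, with a log2 ratio of course 5 to course 1 of -1.13 (95% interval -1.18 to -1.08). With total-count scaling its course 1 level was the same as parental (log2 ratio 0.00). Of the single-strand binding proteins, RPA1 was at 109, 85.4, 79.9 and 82.4 CPM, similar in the 3 DMSO libraries. RPA2 was at 74.2, 52.9, 69.8 and 78.0 CPM and lowest in course 1. RPA3 was at 24.2, 18.5, 16.6 and 14.8 CPM and lower with each further course.

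Of the 4 nucleotide supply genes, TK1, RRM2 and RRM1 were lower in both later courses than in course 1, a pattern that 35.8% of genes showed. The 4 genes had median log2 ratios of -0.37, -0.73 and -0.83 in courses 1, 3 and 5, and all 4 were below parental each time. TK1, thymidine kinase of the salvage route, was at 44.6, 41.6, 25.2 and 19.8 CPM after 0, 1, 3 and 5 courses. Course 1 was close to parental and courses 3 and 5 were lower, and the log2 ratio of course 5 to course 1 was -1.07 (95% interval -1.19 to -0.95). RRM2, the small subunit of ribonucleotide reductase, was at 89.4, 62.9, 46.5 and 41.0 CPM and lower with each further course. RRM1, the large subunit, was at 119, 102, 92.9 and 95.9 CPM. Per kb RRM2 held 37.1% of the summed level of the pair in parental cells and 32.7%, 28.2% and 25.1% in courses 1, 3 and 5. TYMS, thymidylate synthase, was at 128, 78.2, 81.8 and 87.9 CPM, with the DMSO libraries close together. RRM2 has 20.2% of its exon bases under another gene on the same strand, and TYMS overlaps genes on the opposite strand.

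Licensing, polymerase and nucleotide supply genes can be set side by side without a test, since each library is alone at its course. Licensing genes had a median log2 ratio of course 5 to course 1 of 0.27, polymerase genes of 0.09 and nucleotide supply genes of -0.35. Their ranges overlapped, from -0.61 to 1.31 for licensing, from -0.36 to 0.89 for polymerase and from -1.07 to 0.17 for nucleotide supply genes. The nucleotide supply median rests on 4 genes. Over the 10710 genes that averaged 5 CPM or more, the median of this ratio was 0.05, with an SD of 0.84 between genes. Against course 1, course 5 had 2 members at least 2-fold lower, LIG1 and TK1, and 1 at least 2-fold higher, MCM6, where 9.08% and 7.14% of genes were. By total counts those members were 1 (LIG1) and 4 (MCM6, ORC5, TIPIN and CLSPN), where 8.1% and 8.47% of genes were. At 1.5-fold those members were 5 and 10, where 18.7% and 19.3% of genes were. Course 3 had 0 members 2-fold lower than course 1 and 1 higher, again MCM6, where 4.82% and 3.9% of genes were. At 1.5-fold those were 2 and 8, where 12.7% and 13.2% of genes were. Between courses 5 and 3 no member was 2-fold apart, where 0.915% of genes were lower and 0.0747% higher.

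**Figure D4:**
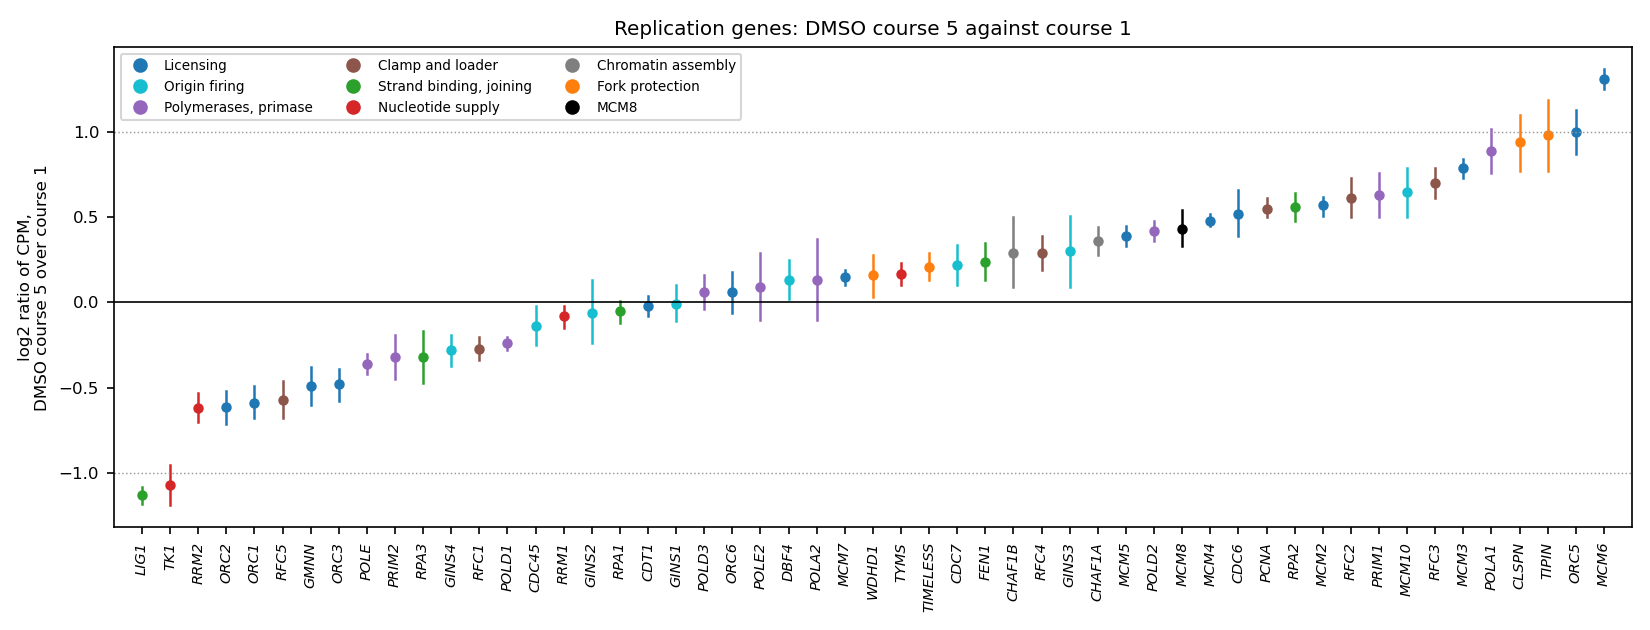
Log2 ratio of CPM in DMSO course 5 over DMSO course 1 for the 53 members in order, coloured by role, with exact binomial 95% intervals for counting error alone and dotted lines at 2-fold. LIG1 (-1.13) and TK1 (-1.07) stand at the low end and MCM6 (1.31) at the high end.

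The remaining genes act at the fork and behind it. CLSPN, the checkpoint adaptor claspin, was at 29.1, 10.6, 20.3 and 20.3 CPM after 0, 1, 3 and 5 courses. TIPIN, which steadies stalled forks, was at 13.0, 6.48, 11.8 and 12.8 CPM. Both were 2-fold or more below parental in course 1, and TIPIN was within counting error of parental in courses 3 and 5. TIMELESS, the partner of TIPIN, was at 85.6, 53.4, 71.2 and 61.7 CPM. WDHD1, which links the helicase to polymerase alpha, was at 31.5, 21.3, 24.7 and 23.8 CPM. TIPIN has 21.0% of its exon bases under another gene on the same strand. CHAF1A, a subunit of the factor that places histones on new DNA, was at 92.2, 55.1, 74.6 and 70.6 CPM. Its partner CHAF1B was at 15.8, 8.24, 11.9 and 10.1 CPM. MCM8, a relative of the helicase that acts in repair, was at 45.5, 27.5, 42.7 and 37.2 CPM. All 7 of these genes were lowest in course 1.

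The trend asked which members followed the number of courses. edgeR's quasi-likelihood test of a slope called 0 of 53 members, where 0% of 18612 genes were called, and limma-voom also called 0. DESeq2's Wald test called 2 of the 53 as lower, a share close to the 3.5% of all genes it called as lower. Those 2 were TK1 (slope of -0.25 log2 units per course, adjusted p = 0.00877 in DESeq2) and LIG1 (-0.23, adjusted p = 0.0241 in DESeq2). At an unadjusted p under 0.05 edgeR listed 7 members, all with negative slopes (13.2%), where 9.67% of genes were lower and 6.13% higher. Levels stood in strictly falling order over 0, 1, 3 and 5 courses for 8 members (15.1%), where 6.26% of genes did, and in strictly rising order for 0, where 9.41% did. Without course 1, 18 members passed in edgeR as lower (1 residual degree of freedom), where 8.48% of genes did. Over the DMSO libraries alone, 3 passed as lower (LIG1, TK1 and RRM2), where 13.6% of 15595 genes did. Another 5 passed as higher (MCM6, ORC5, POLA1, MCM3 and RFC3), where 9.77% did. Neither share of members was above that of all genes, and the median slope of the members turned to 0.03.

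Other genes of the pathway gave 0 calls in edgeR's pooled test and 0 in the trend. Their lists were drawn from their roles, with earlier results of these data known. Of all genes tested 47.5% had a negative pooled estimate, which is the share to set beside the counts of each list. Of 9 further initiation genes 7 had one, with a median of -0.20. RECQL4, a helicase of the initiation step, was at 239.8, 166, 163 and 111 CPM after 0, 1, 3 and 5 courses. CDC25A, the phosphatase that activates CDK2, was at 28.4, 12.6, 23.3 and 22.9 CPM. TICRR, which brings CDC45 to origins, was at 34.7, 35.7, 25.1 and 20.0 CPM. Of 17 further fork genes 13 were negative, with a median of -0.28. POLE3, a small subunit of polymerase epsilon, was at 116, 65.8, 89.5 and 89.9 CPM. The nuclease gene DNA2 was at 23.4, 13.5, 19.6 and 16.2 CPM. POLD4, a small subunit of polymerase delta, was at 27.7, 64.7, 30.4 and 22.7 CPM and highest in course 1. Histone chaperone and DNA methylation maintenance genes were negative in 8 of 8, with a median of -0.47. HELLS, a chromatin remodeler, was at 40.0, 20.2, 27.7 and 25.8 CPM. The histone chaperone gene NASP was at 156, 106, 100.4 and 92.7 CPM. CDCA7, a partner of HELLS, was at 94.8, 47.2, 71.8 and 65.8 CPM.

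Of 12 further nucleotide genes 8 were negative, with a median of -0.22. DCTPP1, which clears dCTP, was at 41.2, 15.8, 20.8 and 24.2 CPM after 0, 1, 3 and 5 courses. SHMT1, which supplies folate units for thymidylate, was at 32.6, 20.2, 19.6 and 15.5 CPM. The nucleoside transporter gene SLC29A1 was at 121, 65.1, 86.2 and 93.1 CPM. Among 26 tested E2F, RB and cyclin genes 19 were negative, with a median of -0.34. E2F1, an activator of replication genes, was at 38.2, 13.8, 23.9 and 21.2 CPM, below parental in each course. E2F8, a repressor in S phase, was at 30.7, 20.5, 15.3 and 12.1 CPM. The D-type cyclin gene CCND2 was at 58.2, 116, 121 and 134 CPM, above parental in each course.

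Mitotic genes were lower too but in another order. All 18 had a negative pooled estimate, and their median log2 ratios were -0.25, -0.54 and -0.78 in courses 1, 3 and 5. Of the 18, 15 were lowest in course 5 and 2 in course 1, where 29.6% and 35.9% of the 10710 genes were. edgeR's quasi-likelihood test of a slope listed 14 of the 18 (77.8%) as lower at an unadjusted p under 0.05, where 9.67% of genes were. BUB1B, a spindle checkpoint kinase gene, was at 107, 71.5, 67.2 and 55.6 CPM after 0, 1, 3 and 5 courses. CCNB1, cyclin B1, was at 99.9, 80.3, 53.4 and 51.7 CPM. CENPF, a kinetochore protein gene, was at 219.5, 163, 142 and 129 CPM. The part of a lower share of dividing cells in the replication gene levels was not tested.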

How the data were processed

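Bulk RNA of 4 MOLM-13 libraries (parental and 1% DMSO courses 1, 3 and 5) was analysed from the deposited tables of raw read counts per Ensembl gene. The submitters' processing notes name hg19 as the build and list FastQC 0.11.5, TopHat2 2.0.11 and HTSeq 0.6p1. The annotation is not given in the sources used here, and the deposited count tables are named as counted on the reverse strand. All 58735 IDs were matched to gene names of GENCODE 29, a GRCh38 annotation. Since the builds differ, no coordinates were taken from the count tables, and those of the promoters are RefSeq's on GRCh38.p14. Rows of unassigned, ambiguous and multiply aligned reads (24.95%, 27.14%, 24.57% and 29.81% of reads after 0, 1, 3 and 5 courses) were left out of library sizes.

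In R 4.3.3, CPM used TMM library sizes from edgeR 4.0.16. Genes were kept by filterByExpr (minimum count 10, minimum total 15), leaving 18612. The pooled fit (DMSO against parental) and the trend (slope over 0, 1, 3 and 5 courses) used the quasi-likelihood test of edgeR, adjusted by Benjamini-Hochberg over all genes tested, with a threshold of 0.05. Each SE given with an edgeR estimate is its absolute log2 fold change divided by the square root of the test's F statistic. DESeq2 1.42.0, limma 3.58.1 (voom), other scalings, filters and left-out libraries were alternatives. Nothing says that libraries of different courses are replicate cultures, so p-values measure the spread between these libraries only. Single libraries were compared as ratios with exact binomial intervals at a level of 0.95, which cover counting error only, for 10710 genes that averaged 5 CPM or more. All 53 members passed both filters.

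Simulated data with a dispersion of 0.1 and 18612 genes gave 52 of 100 changed genes at a log2 change of 2 and 97 of 100 at 4 in the pooled fit, and 27 and 88 in the trend, with 10 and 8 false calls. With a dispersion of 0.01 it was 96 and 95 in the pooled fit and 87 and 95 in the trend, with 5 and 16 false calls. Both dispersions were set and not estimated from these libraries. The lowest pooled log2 fold change of a member was -1.04, so the simulation does not show how often changes of the members' size are found. Members and lists were chosen with earlier results of these data known. Values in every library were set for up to 4 genes per role by absolute pooled fold change, for members 2-fold apart in 1 or in all courses, for those against their role's direction and for 3 genes per related list. The remaining members are given as well. Same-strand exon overlap above 5% and named pseudogenes were looked up in GENCODE 29, for 5 and 9 members.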

Additional observations from a re-analysis of the deposited data

Results flagged for a closer look

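Some members lay on opposite sides of the parental level in 2 DMSO courses, with counting intervals that excluded 0 on each side. The courses have 1 library each, so none of these differences was tested.

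The log2 ratio of course 3 to course 1 was -0.41 for ORC2, 0.43 for PRIM1, -0.32 for RFC1 and -0.69 for LIG1. ORC2, RFC1 and LIG1 were above parental in course 1 and below it in course 3, and PRIM1 was the reverse. The log2 ratio of course 5 to course 1 was -0.61 for ORC2 and -1.13 for LIG1, both above parental in course 1 and below it in course 5. It was 1.00 for ORC5, 0.63 for PRIM1 and 0.56 for RPA2, all below parental in course 1 and above it in course 5. RPA2 also stood below parental in course 3 and above it in course 5, with a log2 ratio of course 5 to course 3 of 0.16. Scaled by total counts, LIG1 had a log2 ratio to parental of 0.00 in course 1. PRIM1 shares 16.2% of its exon bases with other genes on the same strand and RPA2 has named pseudogenes, whose part was not tested.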

How the results depend on the processing

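No paired analysis was possible because each course has 1 library and the groups compared share no replicate number. Leaving out each library in turn moved the members called between 0 and 10 in the pooled fit and between 0 and 18 in the trend, the median pooled log2 fold change between -0.56 and -0.46, and the median slope between -0.11 and 0.03, the last without the parental library, where 8 members were called. DESeq2's Wald test called 2 members in the trend. Scaling by total counts shifted all ratios to parental by -0.114, -0.076 and -0.043 in courses 1, 3 and 5. With it the members 2-fold lower numbered 18 in course 1 and 2 in course 3, and the members' course 1 median was -0.73. Course 1 medians became -0.82 for licensing, -0.95 for firing, -0.50 for polymerase, -0.64 for clamp and -0.48 for nucleotide genes and -0.84 for MCM8, and the licensing median became -0.59 in course 3 and -0.56 in course 5. Course 5 against course 1 then had 1 member 2-fold lower and 4 higher. The side of parental changed or was lost with it for LIG1 in course 1, CDT1 in course 3 and MCM6, DBF4 and RFC2 in course 5, and with DESeq2 size factors for ORC1 in course 1. At 1.5-fold 28, 13 and 19 members were lower than parental in courses 1, 3 and 5. At that fold, course 3 against course 1 had 2 lower and 8 higher, and course 5 against course 1 had 5 lower and 10 higher. With the longest transcript as gene length, parental shares became 29.8% for MCM4, 20.6% for ORC1, 35.6% for GINS1, 27.4% for RFC3, 53.4% for RPA2, 60.7% for RRM1, 41.0% for PRIM1, 56.8% for POLD1 and 70.2% for POLE. In all, 33 values went past their tolerance, 1 changed sign and 164 stayed within it, though many of these differed slightly. The tolerance was 1.5 times for counts, 0.1 for fitted medians and the counting interval for ratios and shares. The cause was not tested beyond the shifts and the fewer samples named. Depth left few limits here, since the lowest member count was 279.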

Other observations

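Some genes outside the replication list, chosen after their values were seen, were higher in the DMSO cultures. RRM2B, the p53-induced small subunit of ribonucleotide reductase, was at 139.5, 183, 165 and 198 CPM after 0, 1, 3 and 5 courses. SAMHD1, which breaks down deoxynucleotides, was at 54.6, 63.4, 80.9 and 91.0 CPM. CMPK1, a pyrimidine nucleotide kinase, was at 122, 133, 180.2 and 223 CPM. RB1, the restraint on E2F factors, was at 123, 163, 179 and 202 CPM. CDKN1A, the cyclin-dependent kinase inhibitor p21, was at 97.3, 118, 149.8 and 248 CPM. All 5 were lowest in the parental library, where 26.3% of the 10710 genes were. On the lists they came from, 6 of 26 E2F, RB and cyclin genes and 3 of 12 nucleotide genes were lowest there. Other kinase inhibitors on the first list, CDKN1B, CDKN2C and CDKN2D, were below parental in courses 3 and 5. Their log2 ratios in course 5 were -0.28, -0.16 and -0.92. In course 1 CDKN1B and CDKN2D were above parental, with log2 ratios of 0.39 and 0.18, and CDKN2C was at -0.05. None of these genes had an adjusted p under 0.05 in edgeR's pooled or trend test.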
